A study of Homo sapiens with 18 samples.

Results

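The genes described here are 10 lipid genes that are known targets of the peroxisome proliferator-activated receptors (PPARs), with the fatty acid carrier FABP4 at their head, followed by CD36, UCP2, PDK4, LPL, PLIN2, PEX11A, AQP3, ACSBG1 and ANGPTL4. All probes that carry one of these symbols in the annotation of an Illumina bead array were taken, which gave 15 probes of 47323 on the array and 10 of the 11978 genes tested. The genes were chosen with earlier results of these same arrays known, so their own changes are given below as a description and not as tests.

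PPARs are nuclear receptors that bind fatty acids and their derivatives. Together with the retinoid X receptor (RXR) they sit on DNA repeats of the DR1 type and switch on genes for fatty acid uptake, binding, storage and oxidation. PPARγ, the member that rosiglitazone activates, is the main regulator of fat cell differentiation and is also known in the urothelium, the lining of the bladder, where it promotes differentiation of the luminal cells.

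Total RNA of 3 human urinary tract cancer cell lines, of which Scaber is squamous, was hybridised to 18 arrays in 6 groups of 3. UC7 cells were controls or had received 1 µM rosiglitazone for 24 h. UC14 cells carried a non-targeting shRNA or an shRNA against p63, a transcription factor of basal epithelia. Scaber cells carried a non-targeting siRNA or an siRNA against STAT3, which carries signals of cytokine receptors to the nucleus. The labels number 3 replicates in each group without saying whether they were separate cultures, so spread and p-values measure the difference between these arrays and may be technical. The labels used here name no clone or vector, and no vehicle for the UC7 controls. In bulk RNA, fewer cells that express a gene and less RNA per cell cannot be told apart.

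Median raw signal per array lay between 51.6 and 56.3 in UC7, 98.5 and 114 in UC14, and 96.3 and 115.8 in Scaber. Between 19093 and 20440 probes were detected per UC7 array, 14032 to 15432 per UC14 array and 16473 to 18021 per Scaber array. A probe was called detected where its detection p, which sets it against the negative controls of its array, was under 0.01. STAT3, the target of the siRNA, had log2 signals of 9.89, 9.93 and 9.89 on the Scaber control arrays and 6.42, 6.84 and 6.65 on the siRNA arrays, a 9.61-fold lower level (log2 change -3.26 ± 0.11, limma adjusted p = 4.93e-12). The p63 transcript was not analysed here. Of 10 epithelial and urothelial markers, 7 to 9 were detected on all arrays of each group, and the luminal markers GATA3, UPK1B and UPK2 were not detected on all arrays of either Scaber group.

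The promoters of the members are shown because 8 of the 10 genes were called higher under the PPARγ agonist. Of all genes tested, 12.5% were called higher by the same threshold, which is given below. RefSeq's table for GRCh38.p14 held 14 start sites of 8 members, and no entry for FABP4 or LPL. The 250 bases before a start are printed for the 3 members with an entry that rose most in UC7, ACSBG1, UCP2 and CD36, on the strand of the gene. UCP2 is represented by the first of its start sites, and CD36 by the one of its 6 start sites whose bases came closest to the DR1 pattern AGGTCANAGGTCA, read on both strands. Capitals mark the 13 bases closest to that pattern. The windows are chr15:78234566-78234815 (minus strand) for ACSBG1, chr11:73983203-73983452 (minus strand) for UCP2 and chr7:80638266-80638515 (plus strand) for CD36.
ACSBG1: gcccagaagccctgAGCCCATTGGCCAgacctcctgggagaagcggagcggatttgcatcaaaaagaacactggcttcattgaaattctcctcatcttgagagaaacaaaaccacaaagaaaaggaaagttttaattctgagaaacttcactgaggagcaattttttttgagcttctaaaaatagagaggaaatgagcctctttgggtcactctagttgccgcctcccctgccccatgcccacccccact
UCP2: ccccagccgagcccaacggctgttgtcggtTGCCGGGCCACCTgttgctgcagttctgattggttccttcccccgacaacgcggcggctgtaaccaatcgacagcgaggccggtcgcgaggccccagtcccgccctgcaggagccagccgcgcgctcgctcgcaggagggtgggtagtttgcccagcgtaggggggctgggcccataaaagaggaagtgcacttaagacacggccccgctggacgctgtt
CD36: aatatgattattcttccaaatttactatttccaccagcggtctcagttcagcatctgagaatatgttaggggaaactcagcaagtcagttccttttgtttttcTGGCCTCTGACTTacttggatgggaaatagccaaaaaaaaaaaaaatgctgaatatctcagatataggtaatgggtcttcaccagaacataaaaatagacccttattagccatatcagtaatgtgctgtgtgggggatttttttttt
In ACSBG1, 8 of the 12 fixed letters of the pattern matched, which 68.7% of all 35114 promoters in the table also reach or exceed over the same length. In UCP2 the closest stretch matched 7 letters, as 99.4% of promoters do. In CD36 it matched 10 letters on the opposite strand. That window was picked as the closest of 6, so no share of all promoters is set beside it, and the remaining CD36 windows matched 7 to 9 letters. None of the 14 windows held the full pattern, which 0.0171% of promoters hold, or its single hexamer AGGTCA, which 12.1% hold and which is part of the full pattern. These letters are a description of 250 bases and say nothing of sites elsewhere in the genes.

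The 10 genes differed first in where they were detected at all. PLIN2 was detected on every array of all 6 groups. CD36, PDK4, LPL and AQP3 were detected on all arrays of the UC7 groups only. FABP4 was detected on all arrays of 5 groups, and was below detection on all 3 arrays of the STAT3 siRNA group. PEX11A also reached all arrays of 5 groups, ANGPTL4 of 4, and UCP2 and ACSBG1 of 3. Detection was set against the negative controls of each array, and the raw signal needed for it differed between lines. ACSBG1 was detected on all UC7 control arrays at a mean raw signal of 89.0. On the Scaber control arrays it was undetected at 107.0, so detection in UC7 only is not a comparison of raw levels.

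**Figure D1:**
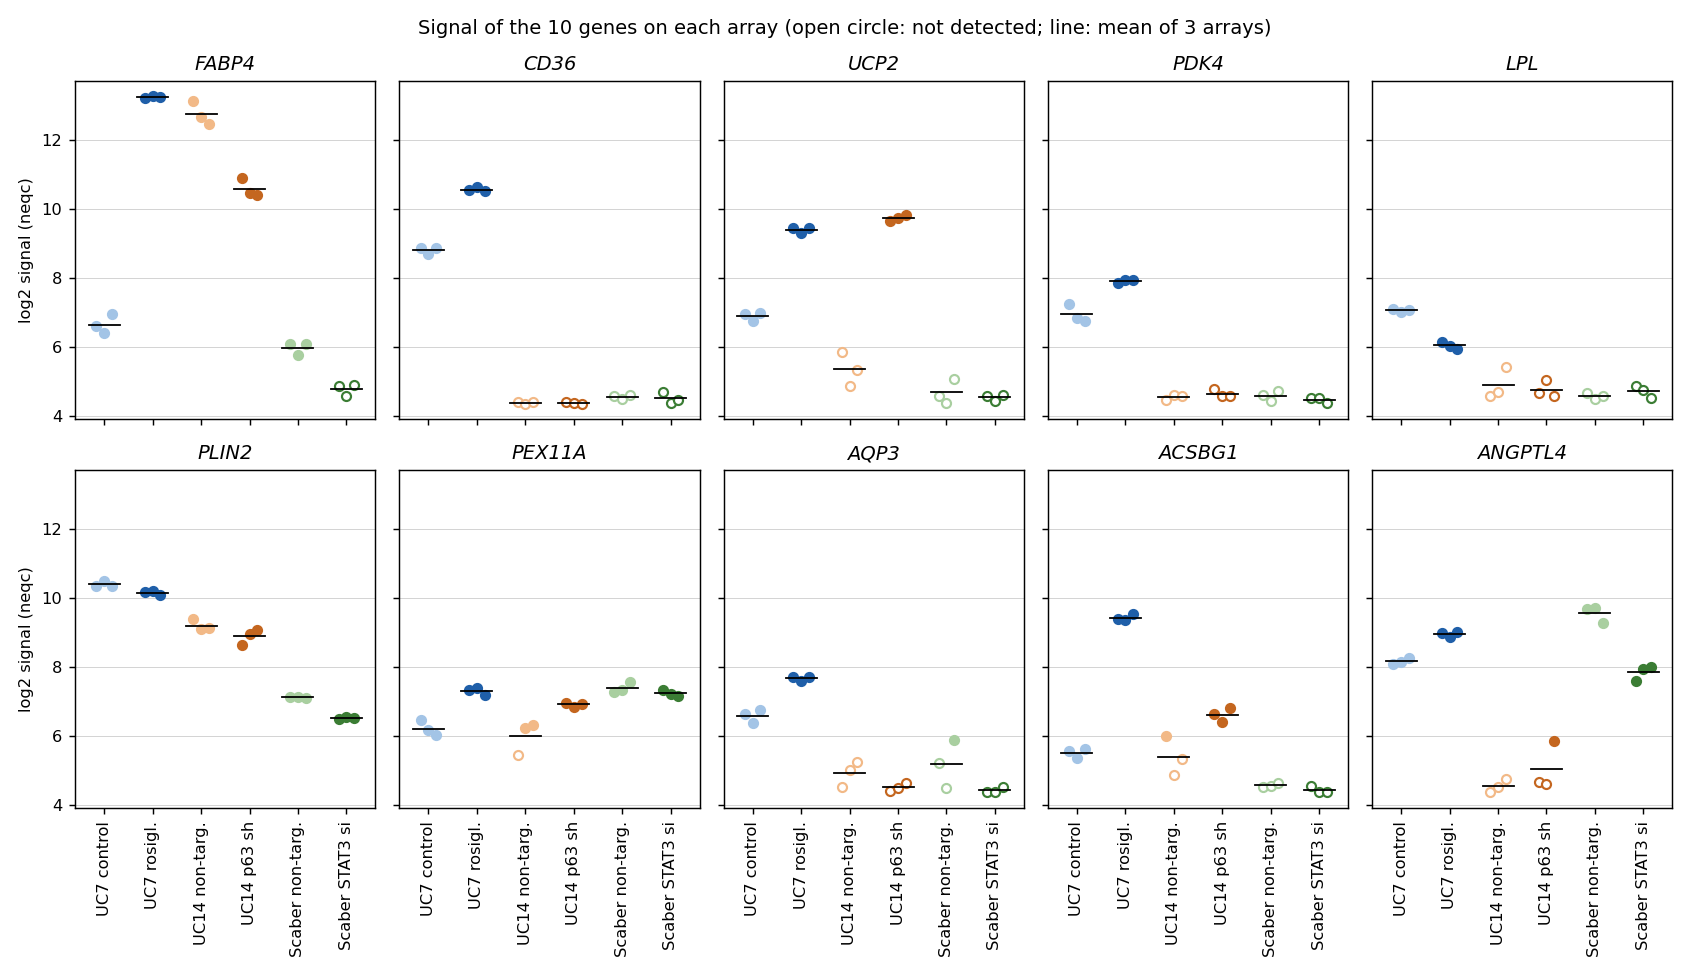
Log2 signal (vertical axis) of the probe that represents each of the 10 genes on each of the 18 arrays, by group (horizontal axis); filled circles are detected, open circles are not, and the lines are means of 3 arrays. FABP4 spans the widest range, from 4.58 on a STAT3 siRNA array to 13.27 on a rosiglitazone array, and CD36, PDK4, LPL and AQP3 are detected on all arrays of UC7 groups only.

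In UC7, 8 of the 10 genes were higher under rosiglitazone by the threshold of the limma fit over all genes (adjusted p under 0.05), where 12.5% of all 11978 genes were called higher. Only LPL was lower, where 12.0% of all genes were called lower, and PLIN2 did not pass (24.5% of all genes were called in either direction). Their median log2 change was 1.09, against -0.001 over all genes tested. In UC14 under p63 shRNA 3 were higher (UCP2, PEX11A and ACSBG1; 23.8% of all genes), 2 were lower (FABP4 and PLIN2; 20.9%), and 5 did not pass (44.7% called in either direction). CD36, PDK4, LPL and AQP3 were undetected in both UC14 groups. In Scaber under STAT3 siRNA 0 were higher (12.1% of all genes) and 4 were lower (FABP4, PLIN2, AQP3 and ANGPTL4; 13.8%). The other 6 did not pass in Scaber (25.9% called in either direction), and CD36, UCP2, PDK4, LPL and ACSBG1 were undetected in both groups. The median change of the 10 genes was 0.049 in UC14 and -0.146 in Scaber, against 0.006 and 0.014 over all genes.

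**Figure D2:**
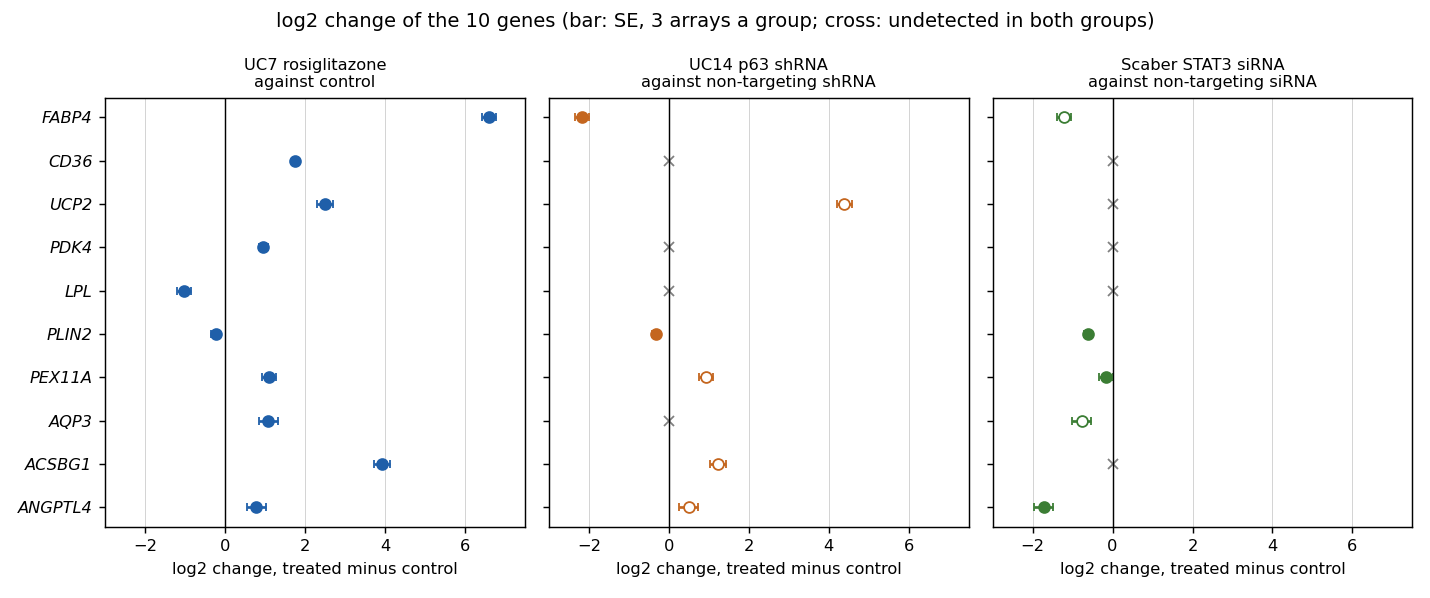
Log2 change, treated minus control (horizontal axis), of the 10 genes in the 3 comparisons, with the standard error of the fit as bars (3 arrays a group). Filled circles were detected on all arrays of both groups, open circles on some or none of the arrays of a group, and crosses mark genes undetected in both. FABP4 lies far to the right in UC7 (6.60) and to the left in UC14 (-2.18) and Scaber (-1.20).

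FABP4 encodes a small protein that binds fatty acids in the cytosol of fat cells and macrophages and carries them within the cell. Its log2 signals were 6.60, 6.39 and 6.95 on the UC7 control arrays and 13.21, 13.27 and 13.25 under rosiglitazone. The rosiglitazone arrays lay within a narrow band far above the controls. FABP4 was 96.8-fold higher (log2 change 6.60 ± 0.17, SE, n = 3 and 3), which was rank 1 of the 11978 genes from the top. The log2 change was 5.85 without background correction and 5.88 in the authors' deposited values, both smaller. In raw intensity its mean went from 185.1 to 11969.

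In UC14, FABP4 started from a high level, with log2 signals of 13.14, 12.68 and 12.48 under the non-targeting shRNA, and measured 10.89, 10.48 and 10.40 under the p63 shRNA. The groups did not overlap, and FABP4 was 4.52-fold lower (-2.18 ± 0.17). In Scaber the control arrays read 6.07, 5.77 and 6.07, just above the level at which probes were detected, and the siRNA arrays read 4.85, 4.58 and 4.88 and were all undetected. FABP4 was there at least 1.49-fold lower, a bound that sets the control mean against the lowest detected signal of each siRNA array. It held for background-corrected values only. The log2 change in Scaber was -1.20, and -0.57 without background correction or -0.51 in the authors' deposited values, both smaller than that bound.

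By mean log2 signal, FABP4 was highest in UC7 under rosiglitazone (13.24), followed by UC14 with non-targeting shRNA (12.77), UC14 with p63 shRNA (10.59), the UC7 controls (6.65), the Scaber controls (5.97) and Scaber with STAT3 siRNA (4.77). No neighbours in that order had overlapping arrays. The nearest level to that of UC7 with the agonist was that of UC14 with a non-targeting shRNA and no agonist.

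CD36 encodes a membrane receptor that takes up long-chain fatty acids and oxidised lipoproteins. The brightest of its 3 probes (ILMN_1796094) read 8.86, 8.70 and 8.87 on the UC7 control arrays and 10.54, 10.63 and 10.53 under rosiglitazone. The groups stood well apart, and CD36 was 3.38-fold higher (1.76 ± 0.09). A further probe (ILMN_1784863) read 8.33, 8.28 and 8.38 in the controls and 10.46, 10.29 and 10.25 under rosiglitazone, a log2 change of 2.00. The remaining probe (ILMN_1665132) was undetected on all 18 arrays, at log2 signals between 4.23 and 4.59. In UC14 and Scaber all 3 probes were undetected, and no fold is given.

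LPL encodes lipoprotein lipase, a secreted enzyme that releases fatty acids from circulating triglycerides. It moved in the opposite direction to CD36 in UC7. Its log2 signals were 7.10, 7.02 and 7.08 in the controls and 6.15, 6.03 and 5.95 under rosiglitazone, with every treated array below every control array. LPL was 2.04-fold lower (-1.03 ± 0.18, or -0.59 without background correction). It was undetected on all UC14 and Scaber arrays.

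ANGPTL4 encodes a secreted inhibitor of lipoprotein lipase that is also known to be induced by hypoxia. In UC7 its brightest probe (ILMN_1707727) read 8.10, 8.15 and 8.27 in the controls and 8.99, 8.86 and 9.03 under rosiglitazone. The groups did not overlap, and ANGPTL4 was 1.72-fold higher (0.79 ± 0.24). This call ended without rosiglitazone replicate 1 (0.77), rosiglitazone replicate 3 (0.75), control replicate 1 (0.75) or control replicate 2 (0.78), so the size of the change held while the call did not.

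In Scaber, ANGPTL4 read 9.69, 9.72 and 9.29 in the controls and 7.59, 7.95 and 8.00 under STAT3 siRNA. All siRNA arrays lay below the controls, and ANGPTL4 was 3.30-fold lower (-1.72 ± 0.24), the largest fall among the 10 genes in Scaber and rank 37 of 11978 from the bottom. In UC14 it was detected on 1 of 3 p63 shRNA arrays (5.85) and on no control array, and its change of 0.49 ± 0.24 did not pass. The arrays of the UC14 groups overlapped. Without p63 shRNA replicate 1 or 2 the change passed, at 0.68 and 0.72. Both of those fits kept the only detected array. Over all alternatives the UC14 change ranged from 0.09 to 0.72.

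A further ANGPTL4 probe (ILMN_2386444) was dimmer and moved less in UC7 and Scaber. In UC14 it was slightly brighter and moved slightly more than the 0.49 of the other probe, both near background. It changed by 0.36 in UC7, where its groups overlapped, by 0.55 in UC14 and by -0.44 in Scaber, and none of these passed when all kept probes were tested singly. Its Scaber siRNA arrays read 6.79, 7.37 and 6.15 and overlapped the control values of 7.49, 7.18 and 6.96. The remaining ANGPTL4 probe (ILMN_1674376) was undetected on all 18 arrays. The ANGPTL4 calls in UC7 and Scaber thus rest on the brightest probe.

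**Figure D3:**
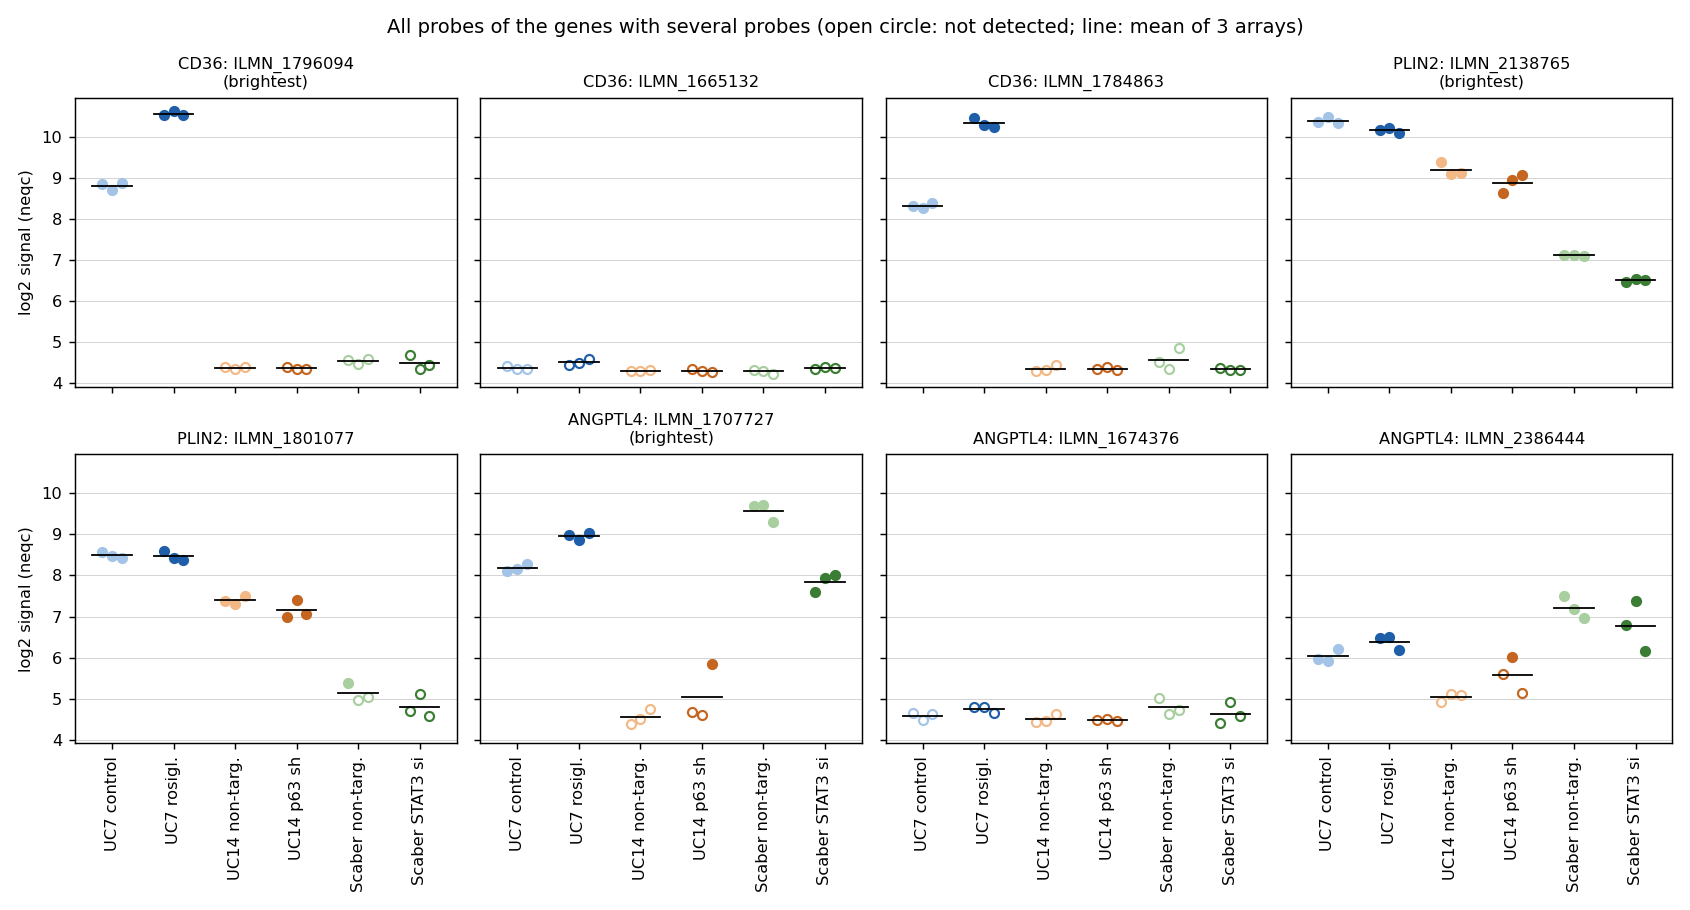
Log2 signal (vertical axis) of all 8 probes of CD36, PLIN2 and ANGPTL4, the genes with several probes, by group (horizontal axis), with filled circles for detected arrays, open circles for undetected arrays and lines for means of 3 arrays. The detected CD36 probes rise by 1.76 and 2.00 in UC7, while the dimmer ANGPTL4 probe moves by -0.44 in Scaber where the brightest moves by -1.72.

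PLIN2 encodes perilipin 2, a coat protein of lipid droplets that is found in most cells and, like ANGPTL4, is known to be hypoxia-induced. Its brightest probe (ILMN_2138765) read 10.36, 10.49 and 10.35 in the UC7 controls and 10.17, 10.21 and 10.10 under rosiglitazone. Every treated array lay below every control array, but the change of -0.24 ± 0.11 did not pass the threshold. With array weights (-0.26) or with the 6 UC7 arrays alone (-0.24) it passed.

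PLIN2 was lower in both knockdowns. In Scaber it read 7.13, 7.13 and 7.11 in the controls and 6.48, 6.54 and 6.52 under the siRNA. It was 1.53-fold lower there (-0.61 ± 0.11, or -0.38 without background correction). In UC14 it read 9.40, 9.09 and 9.12 in the controls and 8.63, 8.96 and 9.07 under the shRNA, and was 1.24-fold lower (-0.32 ± 0.11). The UC14 groups were separated by the small gap between 9.07 and 9.09. That call ended under median scaling (-0.19), with array weights (-0.29), with only the 6 UC14 arrays (-0.32), without non-targeting replicate 1 (-0.22) and without p63 shRNA replicate 1 (-0.19). The other PLIN2 probe (ILMN_1801077) changed by -0.03, -0.25 and -0.33 in UC7, UC14 and Scaber, and none of these passed. It was detected on 1 of 3 Scaber control arrays and on no siRNA array, so its Scaber value lies at background.

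ACSBG1 encodes an acyl-CoA synthetase that activates long-chain and very long-chain fatty acids, and it is known mainly from brain, adrenal gland and testis. Its log2 signals were 5.55, 5.37 and 5.63 in the UC7 controls, close to the lowest detected signals, and 9.40, 9.36 and 9.55 under rosiglitazone. The groups stood far apart, and ACSBG1 was 15.1-fold higher (3.92 ± 0.20), rank 2 of 11978 after FABP4. Without background correction the log2 change was 2.74. In UC14 it read 6.01, 4.86 and 5.32 in the controls, of which 1 array was detected, and 6.63, 6.41 and 6.82 under p63 shRNA. The change there was 1.22 ± 0.20, and 0.63 without background correction. ACSBG1 was undetected in Scaber.

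UCP2 encodes a carrier of the inner mitochondrial membrane that is linked to fatty acid oxidation and to the control of reactive oxygen species. It read 6.94, 6.76 and 6.98 in the UC7 controls and 9.46, 9.30 and 9.44 under rosiglitazone. The groups were clearly separated, and UCP2 was 5.66-fold higher (2.50 ± 0.19), rank 19 of 11978. In UC14 it was undetected on all control arrays, at 5.84, 4.87 and 5.34, and read 9.66, 9.73 and 9.83 under p63 shRNA. UCP2 was there at least 15.3-fold higher, which held for background-corrected values only. The UC14 log2 change was 4.39 ± 0.19, and 3.10 without background correction and 3.12 in the authors' deposited values, both below that bound. UCP2 was the member with the largest rise in UC14 (rank 9 of 11978), whereas FABP4 fell there, and it was undetected in Scaber.

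PDK4 encodes a kinase that inhibits the pyruvate dehydrogenase complex and so spares glucose when fatty acids are burned. It read 7.25, 6.85 and 6.76 in the UC7 controls and 7.85, 7.95 and 7.94 under rosiglitazone. All treated arrays exceeded all controls, and PDK4 was 1.94-fold higher (0.96 ± 0.12, or 0.67 without background correction). It was undetected on all UC14 and Scaber arrays.

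PEX11A encodes a membrane protein that drives the division of peroxisomes, which shorten very long fatty acids. It read 6.45, 6.17 and 6.02 in the UC7 controls and 7.33, 7.40 and 7.20 under rosiglitazone. PEX11A was there 2.14-fold higher (1.10 ± 0.17, or 0.66 without background correction). In UC14 it read 5.44, 6.22 and 6.31 in the controls, of which 2 were detected, and 6.96, 6.84 and 6.94 under p63 shRNA. The UC14 groups did not overlap, and the change was 0.93 ± 0.17, or 0.52 without background correction. In Scaber it read 7.28, 7.33 and 7.56 in the controls and 7.33, 7.22 and 7.16 under the siRNA, with overlapping groups and a change of -0.16 ± 0.17 that did not pass.

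AQP3 encodes a water and glycerol channel of epithelia, including urothelium. It read 6.63, 6.37 and 6.76 in the UC7 controls and 7.72, 7.58 and 7.71 under rosiglitazone. The groups stood apart, and AQP3 was 2.12-fold higher (1.09 ± 0.24, or 0.71 without background correction). In Scaber only control replicate 3 (5.87) was detected, the other controls reading 5.22 and 4.50, and the siRNA arrays read 4.37, 4.38 and 4.51, all undetected. The groups overlapped, and although the change of -0.78 passed the threshold, no fold is given for it. The call ended with only the 6 Scaber arrays (-0.78) and without control replicate 1 (-0.76), control replicate 3 (-0.44), siRNA replicate 1 (-0.75) or siRNA replicate 2 (-0.76). AQP3 was undetected in UC14.

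The members were compared with FABP4 over all 18 arrays by the root mean square difference of log2 signals, each gene centred on its own mean. ACSBG1 was the nearest member, at 2.38 log2 units and rank 46 among the 11977 other genes, followed by UCP2 (2.67, rank 217) and PLIN2 (2.69, rank 250). AQP3 (3.15, rank 2703), PDK4 (3.19, rank 3218), LPL (3.43, rank 6977), PEX11A (3.55, rank 8697) and CD36 (3.56, rank 8783) lay farther off. ANGPTL4 was the farthest, at 4.59 and rank 11730. The 5 nearest genes of all were ALDH7A1 (1.90), ALDH5A1 (1.96), TGFBR3 (1.97), CMTM8 (1.98) and TMT1A (1.98). ALDH7A1 and ALDH5A1 are aldehyde dehydrogenases, TGFBR3 is a co-receptor of TGF-β, CMTM8 is a membrane protein of the MARVEL family, and TMT1A is a methyltransferase. The 18 arrays fall into 3 lines, and the measure takes in differences between lines as well as between groups of a line. Of the nearest genes, ALDH7A1 changed by 0.58 in UC7, -0.42 in UC14 and 0.30 in Scaber, and TGFBR3 by 1.33, 1.40 and -0.04.

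The PPAR and RXR receptors were read on the same arrays. PPARG, which encodes PPARγ, had mean log2 signals of 11.13 in the UC7 controls and 10.76 under rosiglitazone, and fell by 0.37 ± 0.08 (limma adjusted p = 0.00249). It stood at 11.92 and 12.00 in UC14 and at 10.36 and 10.35 in Scaber, with changes of 0.08 (adjusted p = 0.461) and -0.01 (adjusted p = 0.931) that did not pass. RXRA, which encodes the main RXR partner in epithelia, did not pass in any comparison (0.02, 0.19 and 0.08 in UC7, UC14 and Scaber, adjusted p = 0.936, 0.088 and 0.580 in limma). PPARD rose in UC14 by 0.50 ± 0.11 (adjusted p = 0.00114), and differed by 0.28 in UC7 (adjusted p = 0.0664) and by 0.00 in Scaber (adjusted p = 0.999). PPARA fell in Scaber by 0.47 ± 0.12 (adjusted p = 0.0099), where 1 siRNA array was detected, and differed by 0.16 in UC7 (adjusted p = 0.419). PPARA was undetected in both UC14 groups. Of 11 receptor and coregulator genes tested, 1 rose (the coactivator PPARGC1B by 0.85, with 2 control arrays detected, adjusted p = 0.0066) and 1 fell in UC7. In UC14 2 rose (PPARD and the coactivator NCOA1 by 0.78) and 1 fell (the deacetylase HDAC3 by 0.27), and in Scaber 0 rose and 2 fell (PPARA, and HDAC3 by 0.43). Under median scaling 4 rose and 0 fell in UC14, where HDAC3, at -0.15, did not pass. In the main fit the shares higher in UC7, UC14 and Scaber were 9.09%, 18.2% and 0%, beside 12.5%, 23.8% and 12.1% of all genes. The shares lower were 9.09%, 9.09% and 18.2%, beside 12.0%, 20.9% and 13.8%.

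Other known PPAR target genes were listed by role, with 61 on the list, 56 named on the array and 42 tested. In UC7 16 rose, 4 fell and 22 did not pass, with a median log2 change of 0.238. UC14 had 15 that rose and 7 that fell, with 20 not passing (median 0.077), and Scaber had 10 and 7, with 25 not passing (median 0.085). The shares higher were 38.1%, 35.7% and 23.8%, beside 12.5%, 23.8% and 12.1% of all genes. The shares lower were 9.52%, 16.7% and 16.7%, beside 12.0%, 20.9% and 13.8% of all genes. The counts by role that follow rest on few genes each and are to be read beside the same shares of all genes. Under median scaling the counts were 10 higher and 6 lower in UC7, 16 and 6 in UC14, and 4 and 10 in Scaber, so the balance in Scaber turned with the scaling.

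Among uptake and binding genes, FABP5, the epidermal relative of FABP4, moved with FABP4 in direction in all 3 comparisons. It rose by 1.67 ± 0.11 in UC7 (adjusted p = 7.27e-09), fell by 1.17 ± 0.11 in UC14 (adjusted p = 2.47e-07) and fell by 1.29 ± 0.11 in Scaber (adjusted p = 3.1e-07). FABP3, the heart type, was at least 1.47-fold higher in UC7, where it was undetected in the controls. The FABP3 bound held for background-corrected values only, the log2 change without the correction being 0.44. The fatty acid carrier SLC27A2 fell by 0.36 in UC7 and rose by 1.10 in UC14. SLC27A1 passed the threshold in UC14 at 0.67 although it was undetected in both groups, and no fold is given. OLR1, a receptor for oxidised LDL, fell by 2.81 ± 0.20 in UC14 (-2.07 without background correction) and by 0.66 in Scaber, where the lipoprotein receptor VLDLR was at least 1.39-fold lower. Of the 7 genes of this role, 2 rose and 1 fell in UC7, 2 were called higher (SLC27A1 among them) and 2 fell in UC14, and 0 rose and 3 fell in Scaber.

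The acyl-CoA synthetases, which activate fatty acids as ACSBG1 does, moved the same way in UC7 and UC14. ACSL5 rose by 1.38 ± 0.10 and 0.78, ACSL1 rose by 0.39 and 0.82, and ACSL4, which prefers arachidonic acid, fell by 1.11 ± 0.12 and 0.94. Under median scaling ACSL1 in UC7, at 0.32, did not pass. None of the 3 passed in Scaber, with values from -0.06 to 0.24.

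Of 10 storage and lipolysis genes, 3 rose and 1 fell in UC7, 5 rose and 1 fell in UC14, and 2 rose and 2 fell in Scaber. The hormone-sensitive lipase LIPE rose by 1.47 ± 0.18 in UC7 (adjusted p = 1.19e-05, 2 control arrays detected), and by 0.75 without background correction. The triglyceride lipase PNPLA2, which releases fatty acids from the droplets that PLIN2 coats, rose by 1.06 ± 0.14 in UC7 and by 1.32 ± 0.14 in UC14. AGPAT2, an enzyme of triglyceride synthesis, rose by 0.50 in UC7 and fell by 0.61 in Scaber. G0S2, an inhibitor of PNPLA2, was at least 1.15-fold lower in UC7, where it was undetected under rosiglitazone. DGAT2, which makes triglycerides, was at least 1.72-fold higher in UC14, and the monoglyceride lipase MGLL rose there by 1.16 and in Scaber by 0.91. LPIN1, a phosphatidate phosphatase, fell by 1.08 in UC14 and rose by 0.67 in Scaber, and the droplet protein HILPDA fell by 0.55 in Scaber. AGPAT2 in UC7, at 0.38, did not pass under median scaling.

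Oxidation genes had smaller values than those at the head of the storage group. Of 10 mitochondrial genes, 3 rose and 0 fell in UC7, with CPT2, the inner carnitine transferase, at 0.71 ± 0.14, the dehydrogenase ACADM at 0.58 and HADHB at 0.40. In UC14 CPT1B (0.99), ACADVL (0.74) and CPT2 (0.42) rose and HADHA fell by 0.34. In Scaber SLC25A20 (0.48) and CPT1A (0.37) rose and CPT1B was at least 1.28-fold lower. The CPT1B bound held for background-corrected values only, the log2 change without the correction being -0.32. Of 4 peroxisomal genes, ACAA1 (0.57), ECH1 (0.52) and catalase, CAT (0.45), rose in UC7, ECH1 (0.93) and CAT (0.26) in UC14, and ACAA1 (0.70), CAT (0.39) and ECH1 (0.38) in Scaber, with 0 lower in each. Under median scaling HADHB, ACAA1 and CAT in UC7, HADHA in UC14, and SLC25A20, CPT1A, CAT and ECH1 in Scaber did not pass.

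Among the remaining roles, SCD, which desaturates stearate, rose by 1.60 ± 0.09 in UC7 (adjusted p = 1.45e-09) and fell by 1.46 ± 0.09 in UC14 (adjusted p = 1.81e-09). FADS1 rose by 0.42 in UC7 and fell by 0.61 in Scaber, where FADS2 passed at 0.63 with 2 siRNA arrays and no control array detected. NR1H3, the oxysterol receptor LXRα, rose by 1.07 ± 0.11 in UC7, 0.91 in UC14 and 0.35 in Scaber, and the cholesterol exporter ABCA1 fell by 1.00 in UC14. The malic enzyme ME1, which makes NADPH for lipid synthesis, fell by 0.86 ± 0.12 in UC7 and rose by 0.48 in Scaber. Under median scaling FADS1 in UC7 and NR1H3 and ME1 in Scaber did not pass.

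**Figure D4:**
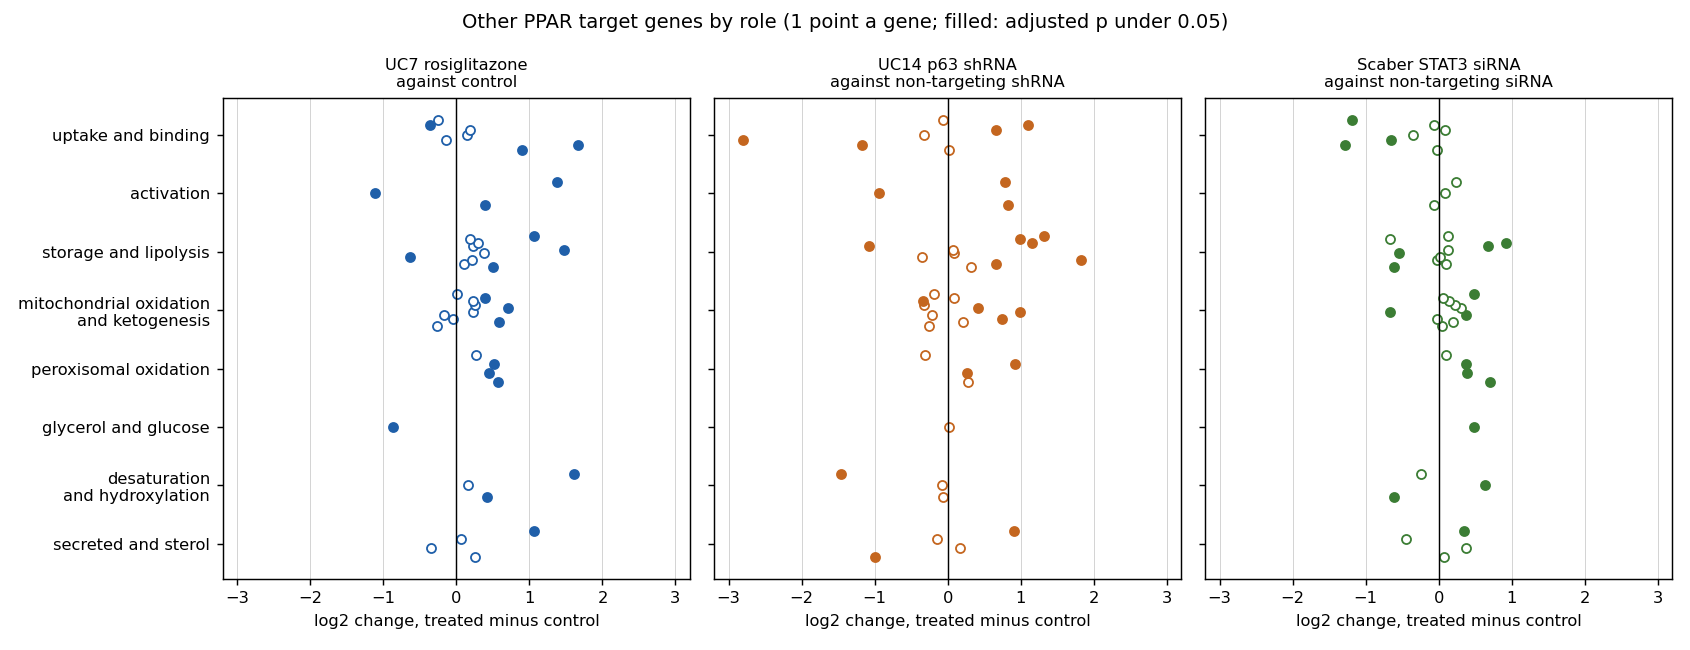
Log2 change, treated minus control (horizontal axis), of 42 other PPAR target genes grouped by role (vertical axis), 1 point a gene, filled where the adjusted p was under 0.05 in limma. In UC7 16 filled points lie to the right and 4 to the left, and none of the 42 comes near the 6.60 of FABP4 (the highest, FABP5, is at 1.67).

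Of 13 paralogues of the members tested (34 listed, 28 named on the array), 4 rose and 2 fell in UC7, 5 rose and 2 fell in UC14, and 1 rose and 4 fell in Scaber. The shares higher in UC7, UC14 and Scaber were 30.8%, 38.5% and 7.69%, beside 12.5%, 23.8% and 12.1% of all genes. The shares lower were 15.4%, 15.4% and 30.8%, beside 12.0%, 20.9% and 13.8%. Of the paralogues tested, FABP3, FABP5, SCARB1 and PLIN5 are also counted among the other PPAR targets. The rises of FABP5 and FABP3 in UC7 therefore enter both counts. LIPG, the endothelial lipase related to LPL, fell by 1.64 ± 0.11 in UC7 (adjusted p = 1.2e-08) and was at least 4.57-fold lower in UC14. That bound held for background-corrected values only, the log2 change without the correction being -1.95. LIPH, another lipase of that family, rose in UC7 by 0.90 ± 0.15. AQP11, a relative of AQP3, rose by 1.03 in UC14 and 1.43 ± 0.13 in Scaber. In UC7 it fell by 0.51, a call that ended without background correction (-0.24). The droplet protein PLIN5 rose in UC14 by 0.99 and the CD36 relative SCARB2 by 0.92, while in Scaber the kinase PDK3 fell by 0.47. UCP3, counted among the 4 lower in Scaber, passed the threshold there at -0.44 although it was undetected in both groups, and no fold is given.

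Of 9 genes whose proteins work with the members, 2 rose and 1 fell in UC7, 3 rose and 4 fell in UC14, and 2 rose and 0 fell in Scaber. The shares higher in UC7, UC14 and Scaber were 22.2%, 33.3% and 22.2%, beside 12.5%, 23.8% and 12.1% of all genes. The shares lower were 11.1%, 44.4% and 0%, beside 12.0%, 20.9% and 13.8%. PNPLA2, which rose in UC7 and UC14, is also counted among the other PPAR targets. ABHD5, the activator of PNPLA2, rose by 0.28 in UC7, 0.66 in UC14 and 0.46 in Scaber. In UC14 DLAT, DLD, PDHX and PDHA1, subunits of the pyruvate dehydrogenase complex that PDK4 inhibits, fell by 0.61, 0.40, 0.38 and 0.36. PDHA1 rose by 0.36 in Scaber, and PDP1, a phosphatase that opposes PDK4, fell by 0.66 in UC7. GPIHBP1, the anchor of LPL on blood vessels, rose by 0.77 in UC14, where 1 control array was detected. Under median scaling ABHD5 in UC7 and Scaber, DLD, PDHX and PDHA1 in UC14, and PDHA1 in Scaber did not pass.

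Since ANGPTL4 and PLIN2 are also hypoxia genes, 15 other hypoxia genes were listed, of which 13 were tested. Of these, 0 rose and 10 fell in UC7, 0 rose and 9 fell in UC14, and 1 rose and 10 fell in Scaber, with medians of -0.568, -0.571 and -0.562. The shares lower in UC7, UC14 and Scaber were 76.9%, 69.2% and 76.9%, beside 12.0%, 20.9% and 13.8% of all genes. The shares higher were 0%, 0% and 7.69%, beside 12.5%, 23.8% and 12.1%. Under median scaling 0 rose and 9 fell in UC7, 0 rose and 7 fell in UC14, and 0 rose and 10 fell in Scaber. HILPDA, on this list, is also counted among the other PPAR targets. The mitophagy receptor BNIP3 fell by 2.56 ± 0.10 in UC7, 0.76 in UC14 and 1.58 ± 0.10 in Scaber, and P4HA1, a collagen prolyl hydroxylase, fell by 1.03, 0.75 and 1.14. ADM, a vasodilator peptide, fell by 1.11 in UC7 and 0.82 in UC14, and ANKRD37 fell by 0.74 in UC7. In UC14 the hexokinase HK2 fell by 1.79 ± 0.10 and NDRG1 fell by 1.25 ± 0.12. The glycolytic regulator PFKFB4 fell by 1.12 in UC14 and 1.32 in Scaber. EGLN3, an oxygen-sensing prolyl hydroxylase, was at least 1.90-fold lower in Scaber, where its log2 change was -1.32, and -0.64 without background correction, which is below that bound. Beside these medians, ANGPTL4 changed by 0.79, 0.49 and -1.72 in UC7, UC14 and Scaber, and PLIN2 by -0.24, -0.32 and -0.61. ANGPTL4 in UC14 and PLIN2 in UC7 did not pass. The part of this list's shift in the ANGPTL4 and PLIN2 values was not tested.

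Markers of other cell types that express these genes were read in the same way. Of 7 adipocyte markers, LEP and CEBPA were detected on all arrays of each group and LIPE on all rosiglitazone arrays, while ADIPOQ, PLIN1, CIDEC and RETN were not detected on all arrays of any group. CEBPA, a transcription factor of fat and epithelial differentiation, rose by 2.38 ± 0.13 in UC7 (adjusted p = 6.72e-10) and by 0.72 in UC14, and LEP, which encodes leptin, rose by 1.14 in UC14. The summed level of the 3 adipocyte markers tested (LEP, CEBPA and LIPE) was 248.4 to 363.0 in the UC7 controls and 784.2 to 895.4 under rosiglitazone, 486.6 to 595.3 and 837.0 to 1028 in UC14, and 619.7 to 634.1 and 506.4 to 623.2 in Scaber (control and treated). Of 6 endothelial markers, PECAM1 was detected on all arrays of the UC7 groups and of the p63 shRNA group, and CDH5, VWF, KDR, TEK and CLDN5 on all arrays of no group. PECAM1 rose by 1.74 ± 0.30 in UC7 and by 0.87 in UC14, where 1 control array was detected. In Scaber it was detected on 2 control arrays and on no siRNA array, so its siRNA values there lie at background. PECAM1 was the only endothelial marker tested, and its linear signal was 64.8 to 74.6 and 225.6 to 232.9 in UC7, 24.1 to 73.3 and 64.8 to 95.4 in UC14, and 24.0 to 50.9 and 22.3 to 23.5 in Scaber. Of 6 macrophage markers, CD163 and PTPRC were not detected on all arrays of any group. CD14 rose by 1.45 in UC7 and fell by 1.13 in Scaber, and CD68 fell by 0.41 in UC7, rose by 1.26 in UC14 and fell by 0.31 in Scaber. CSF1R rose by 0.39 in UC14 and fell by 0.61 in Scaber. The summed level of the 4 macrophage markers tested (CD68, CD14, CSF1R and LYZ) was 229.2 to 250.5 and 292.4 to 314.5 in UC7, 1449 to 1863 and 3372 to 3470 in UC14, and 3089 to 3124 and 2052 to 2179 in Scaber. The part of these markers in the changes of the 10 genes was not tested.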

How the data were processed

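Per the file headers, the authors deposited non-normalized signal intensity for 47323 probes on each of 18 arrays, with a detection p-value for each signal. The authors also deposited log2 values, which matched a quantile normalization of the raw signals without background correction (largest difference 0.00176 between sorted values on the log2 scale). The submitters' processing notes name limma. The scanner software's version and the genome build are not given in the sources used here.

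The raw intensities were corrected, given an offset of 16, quantile normalized and log2 transformed with neqc of limma 3.58.1 in R 4.3.3. Symbols came from the platform annotation, which named 1 gene for 30113 probes, several for 8 and none for 17202. Probes detected (p under 0.01) on every array of some group were kept (16221 probes, 13 of the 15 member probes), and the brightest kept probe stood for a gene (11978 genes). The model, fitted with lmFit and eBayes on all 18 arrays, had a mean per group (12 residual and 4.29 prior degrees of freedom). Two-sided p-values had Benjamini-Hochberg adjustment across the genes tested, and 0.05 was the threshold. The fit was tested on simulated data. A gene undetected on all arrays of 1 group has a bound in place of a fold: the brighter group's mean against the mean, over the dimmer arrays, of the higher of the lowest detected signal and its own. Bounds hold for background-corrected values. The number of arrays limits the precision.

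The members and lists were chosen with earlier results of these data known. The text names all members, the 5 genes nearest to FABP4, PPARG, PPARA, PPARD and RXRA, and up to 4 called genes per list and comparison with the largest change, with values of some of these in the other comparisons. Promoters are from RefSeq (GRCh38.p14), matched by symbol for 8 of 10 members. Alternatives were no background correction, the authors' deposited log2 values, median scaling, an offset of 50, no detection filter, the mean of a gene's probes, single probes, array weights, a replicate block, the arrays of 1 line alone, and leaving out each array.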

Additional observations from a re-analysis of the deposited data

How the results depend on the processing

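Of the 21 pairs of a member and a comparison in which the gene was detected on at least 1 array, 16 kept their direction and call in all 17 alternatives each, and 5 changed call without changing direction: ANGPTL4 in UC7 and UC14, PLIN2 in UC7 and UC14, and AQP3 in Scaber. FABP4 ranged from 5.85 to 6.75 in UC7, from -2.33 to -1.99 in UC14 and from -1.30 to -0.51 in Scaber. ANGPTL4 in UC14 also passed with the mean of its probes (0.52). The number of genes called in UC7 was 2934, and 4894 with array weights and 4831 with the 6 UC7 arrays alone. Leaving out 1 array gave 2301 to 2547 called genes in UC7, 4902 to 5264 in UC14 and 2524 to 2741 in Scaber, and 16 to 20, 19 to 25 and 13 to 17 other PPAR targets. Among called genes, 1492 were higher and 1442 lower in UC7 (1093 and 1609 under median scaling), 2845 and 2506 in UC14 (3144 and 1271), and 1451 and 1655 in Scaber (411 and 1905). The cause was not tested.

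Same-numbered arrays of the groups did not all deviate together. Their deviations correlated at 0.06, -0.01 and 0.124 in UC7, -0.002, -0.044 and 0.03 in UC14, and -0.106, 0.257 and 0.03 in Scaber. So few arrays per group cannot decide whether same-numbered arrays were handled together, and the labels do not say. With the replicate number as a block, 2747, 5286 and 2950 genes were called in UC7, UC14 and Scaber, and 2718, 5254 and 2898 with the letters of the sample titles, which order the UC7 rosiglitazone arrays differently. Under both blocks PLIN2 in UC14 (-0.32) did not pass, and no other member changed call. Signal over background limits UCP2, ACSBG1, AQP3, PEX11A, ANGPTL4 and FABP4 where they were undetected on some or all arrays of a group.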
